A study of Mus musculus with 9 samples.

Results

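The immediate early genes of the Fos, Jun and Egr families were followed in white fat cells given parathyroid hormone peptides for 4 h. The members were 10 genes picked by name: Fos, Fosb, Fosl1 and Fosl2 of the Fos family, Jun, Junb and Jund of the Jun family, the zinc finger factor gene Egr1, and the early response genes Btg2 and Ier2. They were chosen with earlier results of these data known, so counts of members beside shares of all genes are descriptive. All 15 probe sets that the platform annotation gives to these genes were taken, out of 45101 on the array, and 5 of the 10 genes had more than 1 probe set. Gene-level comparisons used 1 probe set a gene, the one with the highest mean signal, for 18193 genes in all.

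RNA was measured on 9 Affymetrix mouse arrays, 3 for each of 3 groups. The first group received 100 ng/ml PTH(1-34), the amino-terminal fragment of parathyroid hormone, for 4 h, and the second received 100 ng/ml PTHrP(1-34), the matching fragment of parathyroid hormone-related protein. The third group was the control, for which no treatment is named in the labels. All groups were primary adipocytes grown from inguinal stromal-vascular cells, the non-fat cells of that depot, of male C57BL6 mice aged 30 to 35 days. Differentiation of all groups was started over 2 days by dexamethasone (1 µM), isobutylmethylxanthine (0.5 µM), rosiglitazone (1 µM) and insulin (5 µg/ml); the cells were then kept in insulin and rosiglitazone, and had plain medium from day 6 to treatment on day 8. The replicates are called biological, but their origin from different animals or dishes is not stated, so p-values measure the spread between these samples. Only 1 time point was taken, so the first hour, when many such genes peak, was not measured.

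Fos and Jun proteins are basic leucine zipper proteins that pair to form AP-1, the transcription factor that binds the element TGANTCA. Jun proteins can pair with each other, whereas Fos proteins need a Jun partner. Egr1 binds GC-rich elements. Many transcripts of this class, though not all, are switched on within minutes of a stimulus without new protein synthesis, through serum response factor and its partners or through CREB. Most are short-lived. The receptor of both peptides, encoded by Pth1r, couples to cyclic AMP and, through it, to protein kinase A, which phosphorylates CREB. In bone-forming cells PTH is a known inducer of Fos.

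Promoter sequence was examined because cyclic AMP acts on genes through the element TGACGTCA, and its core TGACG, on either strand. RefSeq windows (build GRCm38.p6) of the 250 bases before the start site were used for 7 of the 10 members; Fosl1, Ier2 and Egr1 were not used. The window of Btg2, on the minus strand at chr1:134079156-134079405, is shown as a member whose signal was lower with PTHrP. Those of Fos, on the plus strand at chr12:85473640-85473889, and Junb, on the minus strand at chr8:84978749-84978998, are shown as members that hold the core but did not pass the test. Capitals mark TGACGTCA, TGACG and the Egr element GCGNGGGCG.
Btg2: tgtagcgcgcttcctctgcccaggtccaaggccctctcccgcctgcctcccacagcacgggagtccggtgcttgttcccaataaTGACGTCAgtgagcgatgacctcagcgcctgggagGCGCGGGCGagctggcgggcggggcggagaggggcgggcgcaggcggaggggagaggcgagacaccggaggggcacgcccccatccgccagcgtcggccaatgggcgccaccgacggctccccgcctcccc
Fos: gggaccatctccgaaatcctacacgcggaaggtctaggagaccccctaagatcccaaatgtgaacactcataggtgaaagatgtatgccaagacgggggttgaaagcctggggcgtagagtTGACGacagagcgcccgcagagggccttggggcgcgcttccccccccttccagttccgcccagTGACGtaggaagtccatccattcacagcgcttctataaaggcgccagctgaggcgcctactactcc
Junb: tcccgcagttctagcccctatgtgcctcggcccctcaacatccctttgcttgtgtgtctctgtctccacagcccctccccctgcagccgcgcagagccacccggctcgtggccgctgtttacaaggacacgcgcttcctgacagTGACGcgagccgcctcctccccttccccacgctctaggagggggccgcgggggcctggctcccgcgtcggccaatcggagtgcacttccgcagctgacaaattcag
The full element TGACGTCA stood in 1 of the 7 windows, that of Btg2, from -166 to -159 before the start, and in 1.55% of 32851 windows of all genes. The core TGACG, which the full element contains, stood in 4 of the 7 (Btg2, Fos, Fosb and Junb) and in 17.8% of all. In Fos it began at -129 and -66, in Junb at -106 and in Fosb at -60. GCGNGGGCG stood in 3 of the 7 (Btg2, Fosb and Fosl2) and in 4.70% of all. Neither TGANTCA (6.75% of all windows) nor the serum response element (1.47%) stood in any of the 7 windows. Sequence outside these 250 bases was not searched, so elements farther from the start would be missed. The matches describe letters in short windows and were not tested as sites.

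Measured before the members, the 9 measured adipocyte markers of 10 listed were all above the dim level, a signal of 29.0, the 40th percentile of the probe sets. Their summed signal was 75761 to 79513 with PTH, 73793 to 77843 with PTHrP and 74702 to 77277 in controls, and 1 of them, Cidec, rose with each peptide. The 6 markers of smooth muscle and pericytes summed to 23620 to 23911 with PTH, 22636 to 23979 with PTHrP and 25434 to 26091 in controls, with no overlap between treated and control arrays, and 2 of them, Myh11 and Pdgfrb, fell with each peptide. Acta2, Cnn1 and Tagln had negative changes with each peptide that did not pass. Rgs5 went the other way, with log2 changes of 0.23 with PTH and 0.21 with PTHrP that did not pass either. The 5 skeletal muscle markers summed to 371 to 426 with PTH, 375 to 411 with PTHrP and 448 to 551 in controls, again without overlap. Most of that sum was Acta1, at 297 to 321 with PTH, 284 to 320 with PTHrP and 371 to 455 in controls. Acta1 fell with each peptide, and 3 of the 5 (Myh4, Mylpf and Tnnt3) were dim in every group. Myh4 and Ckm had positive changes with each peptide and Mylpf and Tnnt3 negative ones, none of which passed. The 8 macrophage markers summed to 998 to 1064 with PTH, 962 to 1087 with PTHrP and 864 to 944 in controls, without overlap. None passed, and 3 (C1qa, Itgam and Ptprc) were dim in every group. Most of the sum was Csf1r, at 584 to 639 with PTH, 570 to 647 with PTHrP and 455 to 527 in controls. Csf1r and Cd14 had positive changes with each peptide, and Adgre1, C1qa and Cd68 negative ones. Itgam, Mrc1 and Ptprc differed in sign between the peptides. The 6 endothelial markers, with Emcn, Pecam1 and Vwf dim in every group, summed to 228 to 253 with PTH, 223 to 307 with PTHrP and 275 to 324 in controls, and none passed. Of 8 preadipocyte, 5 epithelial and 4 measured lymphocyte markers, 1, 4 and 4 were dim in every group and none passed. No marker was at 0 on all arrays. The ratio of 3' to 5' actin signal, used to judge RNA quality, was 1.61 ± 0.0312 with PTH, 1.56 ± 0.0457 with PTHrP and 1.47 ± 0.0324 in controls (SD, n = 3 each). Each of the 6 treated arrays exceeded each control (two-sided p = 0.0119 by an exact permutation test over 84 splits, which can give no smaller value). The part of these differences in the results that follow was not tested.

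The comparison of each peptide with control asks which of these genes differed after 4 h. One gene, Fosl1, rose close to 2-fold with either peptide, while Egr1 fell with either by a smaller amount. Btg2 fell with PTHrP and with both peptides considered jointly. Signals are linear as deposited, and log2 changes are of signal + 16, tested with limma with p-values adjusted over all 18193 genes. With PTH, 2 of the 10 genes passed, against 6.10% of all genes: 1 rose, against 2.96%, and 1 fell, against 3.14%. With PTHrP 3 passed, against 5.57%: 1 rose, against 2.54%, and 2 fell, against 3.03%. With both peptides together 3 passed (8.40% of all genes): 1 rose (3.84%) and 2 fell (4.57%). The members' median log2 change was 0.08 with PTH and 0.09 with PTHrP, and that of all genes was -0.0027 and -0.0050. Both comparisons use the same 3 control arrays, so they are not independent of each other. In RNA from whole cultures, fewer cells of a type and less RNA per cell cannot be told apart.

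**Figure D1:**
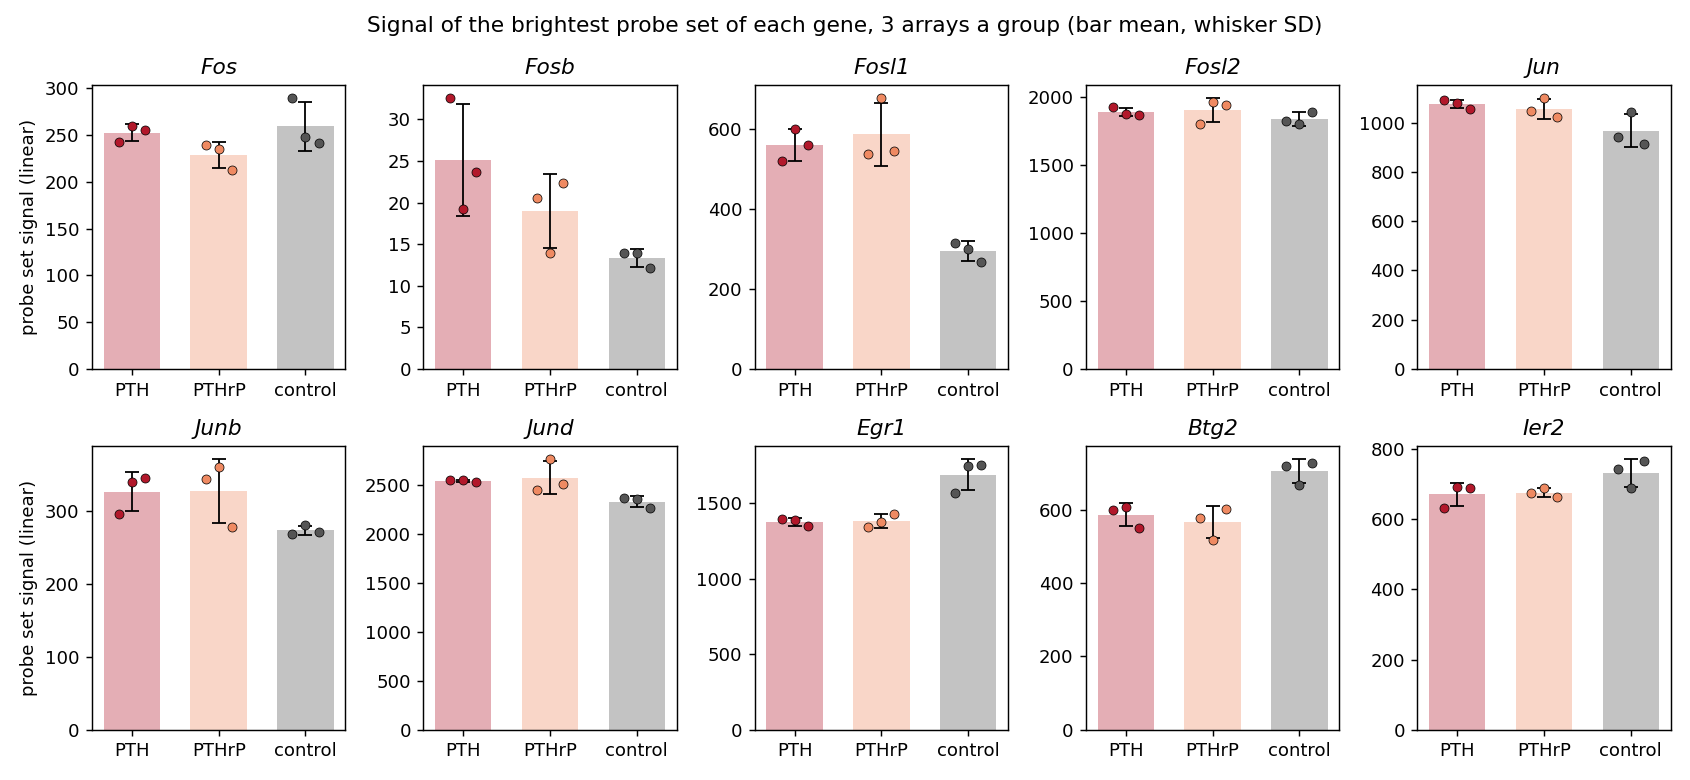
Signal of the brightest probe set of each of the 10 genes on a linear axis from 0, by group (PTH, PTHrP, control). Points are arrays, bars are means and whiskers are SD (n = 3 each). Fosl1 lies between 520.2 and 675 in the treated arrays, above 315, the highest control. Egr1 and Btg2 lie below all controls.

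Fosl1 (Entrez gene 14283) encodes Fra-1, a Fos family protein without the activation domain of Fos that pairs with Jun proteins. Its brightest probe set (1417487_at) had signals of 520.2, 599.8 and 560.2 with PTH, 537, 675 and 544 with PTHrP, and 315, 301 and 268 in controls. Every treated array lay above every control, and the 2 peptides overlapped. The means were 560.1 ± 39.8 with PTH, 585 ± 78.0 with PTHrP and 295 ± 24.1 in controls (SD, n = 3 each), 1.90 and 1.99 times the control mean. The log2 change was 0.89 with PTH (SE 0.10, limma adjusted p = 0.00237) and 0.95 with PTHrP (SE 0.10, adjusted p = 0.00165). With both together it was 0.92 (95% interval 0.72 to 1.12, adjusted p = 0.000684). Fosl1 passed without any 1 of the 9 arrays, with adjusted p between 0.00154 and 0.0156 for PTH and between 0.00391 and 0.00958 for PTHrP.

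The other Fosl1 probe set (1417488_at) was made from the same transcript record and had a separate signal. It read 98.4, 107 and 96.8 with PTH, 88.0, 127 and 92.7 with PTHrP, and 57.5, 65.3 and 56.9 in controls. Again no treated array overlapped a control. Fitted among all 45037 probe sets that were not array controls, its log2 change was 0.62 with PTH (adjusted p = 0.0326) and 0.63 with PTHrP (adjusted p = 0.0314). That probe set's call with PTH was lost without any 1 PTH array or control array. With PTHrP it was lost without any 1 PTH array, PTHrP replicate 3 or any 1 control array. In that fit both Fosl1 probe sets rose with PTH and with PTHrP, making 2 of 15 member probe sets. Of all probe sets 2.70% passed with PTH (1.34% rose, 1.37% fell) and 2.39% with PTHrP (1.19% rose, 1.20% fell); none of the 15 fell. With both peptides together 2 rose and 1, that of Egr1, fell, and 4.13% of all passed (2.00% rose, 2.13% fell).

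Egr1 (Entrez gene 13653) encodes a zinc finger factor that growth factors and serum induce within minutes. Its 1 probe set read 1392, 1387 and 1348 with PTH, 1340.2, 1378 and 1429 with PTHrP, and 1571, 1745 and 1751 in controls. All 6 treated arrays lay below all 3 controls. The means were 1376 ± 24.1 with PTH, 1383 ± 44.7 with PTHrP and 1689 ± 102 in controls (SD, n = 3 each). The log2 change was -0.29 with PTH (SE 0.06, adjusted p = 0.0213) and -0.28 with PTHrP (SE 0.06, adjusted p = 0.0253). The mean signal fell by 18.6% with PTH and fell by 18.1% with PTHrP.

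The single-peptide calls for Egr1 stood close to the threshold. The call with PTH was lost without PTH replicate 1 (adjusted p = 0.0613), PTH replicate 2 (0.0709), PTH replicate 3 (0.0940), control replicate 2 (0.0782) or control replicate 3 (0.0685). The call with PTHrP was lost without PTH replicate 3 (0.0516), PTHrP replicate 1 (0.0969), PTHrP replicate 2 (0.0694), control replicate 2 (0.0867) or control replicate 3 (0.0798). In the fit on all probe sets neither passed (0.0505 with PTH, 0.0594 with PTHrP). With both peptides together the log2 change was -0.29 (95% interval -0.40 to -0.18, adjusted p = 0.00913), and it passed without any 1 array (0.00825 to 0.0475) and among all probe sets (0.0234).

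Btg2 (Entrez gene 12227) encodes an antiproliferative protein that p53 and growth factors induce early. Its brightest probe set (1416250_at) read 601, 609 and 552 with PTH, 579, 519 and 604 with PTHrP, and 721, 668 and 729 in controls. All treated arrays lay below all controls. The means were 587 ± 30.8 with PTH, 567 ± 43.6 with PTHrP and 706 ± 33.0 in controls (SD, n = 3 each). The log2 change was -0.31 with PTHrP (SE 0.07, adjusted p = 0.0446), which passed, and -0.26 with PTH (SE 0.07, adjusted p = 0.0775), which did not.

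Together, the 2 peptides gave a Btg2 log2 change of -0.28 (95% interval -0.43 to -0.14, adjusted p = 0.0260). The PTHrP call was lost without any 1 array except PTHrP replicate 3, with adjusted p between 0.0623 and 0.127. It held under 3 of 11 other settings, and among all probe sets it did not pass (0.0852 with PTHrP, 0.0514 with both). The change with PTH passed under 4 of those 11 settings (adjusted p from 0.0143 to 0.0441), but in no fit that left out 1 array. The joint call was lost without PTH replicate 3 (0.0603), control replicate 1 (0.0917) or control replicate 3 (0.0999). The other probe set (1448272_at) read 417, 449 and 427 with PTH, 442, 441 and 426 with PTHrP, and 563, 524 and 438 in controls. Control replicate 3 lay among its treated arrays, and its log2 changes of -0.22 with PTH and -0.21 with PTHrP did not pass (adjusted p = 0.290 and 0.352).

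Ier2 (Entrez gene 15936), an early response gene for a nuclear protein, read 633, 691 and 691 with PTH, 674, 689 and 664 with PTHrP, and 743, 689 and 766 in controls. Control replicate 2 overlapped the treated arrays, and the log2 changes were -0.12 with PTH (adjusted p = 0.306) and -0.11 with PTHrP (adjusted p = 0.365).

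The Jun genes gave higher mean signals with both peptides, but none passed. Jun (Entrez gene 16476), the founding AP-1 subunit, had a brightest probe set of 1091, 1080.4 and 1057 with PTH, 1047, 1098 and 1021 with PTHrP, and 943, 1042 and 915 in controls. The PTH arrays lay above the controls, while PTHrP overlapped them. Its log2 change was 0.15 with PTH (95% interval 0.02 to 0.29, adjusted p = 0.199) and 0.13 with PTHrP (-0.0092 to 0.26, adjusted p = 0.311). Its other probe set ranged from 825 to 1158, with overlap of all groups and changes of 0.08 and 0.17 (adjusted p = 0.799 and 0.544).

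Junb (Entrez gene 16477), a Jun protein that can restrain the action of Jun, read 296, 340.0 and 346 with PTH, 345, 361 and 279 with PTHrP, and 269, 281 and 272 in controls. Only PTHrP replicate 3 lay within the control range. The log2 change was 0.24 with each peptide (SE 0.10; adjusted p = 0.230 for PTH and 0.245 for PTHrP). The joint change of 0.24 (adjusted p = 0.145) passed without PTHrP replicate 3 (0.0300).

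Jund (Entrez gene 16478), the Jun gene that most resting cells keep on, read 2549.7, 2549.7 and 2532 with PTH, 2453, 2763 and 2508 with PTHrP, and 2370.2, 2353 and 2268 in controls. No treated array overlapped a control, yet the difference was small. Its log2 change was 0.13 with PTH (adjusted p = 0.261) and 0.14 with PTHrP (adjusted p = 0.215). The other Jund probe set was dim on all 9 arrays, between 4.33 and 14.6.

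**Figure D2:**
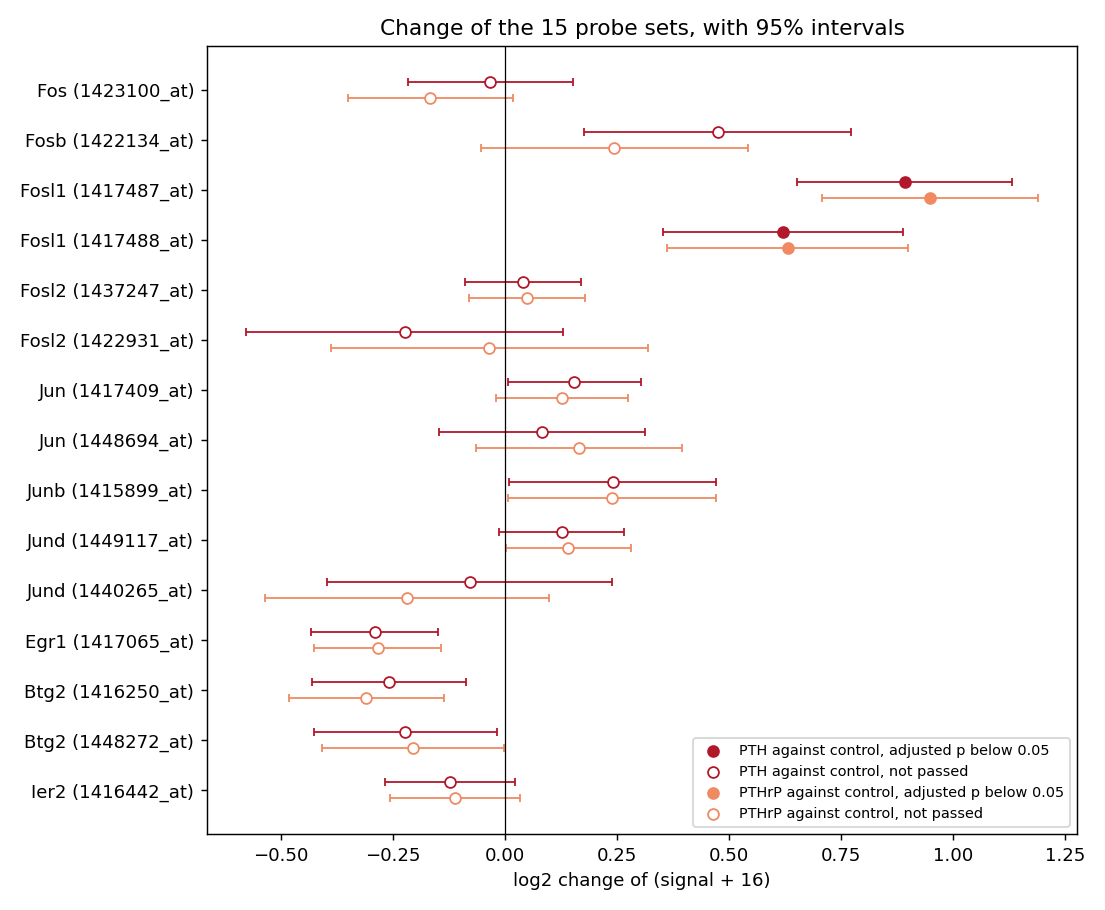
Log2 change of signal + 16 for each of the 15 probe sets, PTH and PTHrP each against control, with 95% intervals from the fit on all probe sets. Filled points passed at an adjusted p below 0.05 and open points did not. The 2 Fosl1 probe sets, with changes from 0.62 to 0.95, are the filled ones.

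Fos (Entrez gene 14281), the AP-1 subunit most used as a marker of recent stimulation, read 243, 260.1 and 255 with PTH, 239, 235 and 213 with PTHrP, and 289, 248 and 242 in controls. The PTH arrays overlapped the controls, and the PTHrP arrays lay just below them. The log2 change was -0.03 with PTH (95% interval -0.21 to 0.14, adjusted p = 0.881) and -0.17 with PTHrP (-0.34 to 0.0084, adjusted p = 0.301). Rises of more than 0.14 lay outside the PTH interval.

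Fosb (Entrez gene 14282), whose product and its shorter splice form act in lasting responses of neurons, had a mean below the dim level in every group, with PTH replicate 1 alone above it. It read 32.5, 19.2 and 23.7 with PTH, 20.5, 13.9 and 22.4 with PTHrP, and 14.0, 14.0 and 12.1 in controls. The PTH arrays lay above the controls, while PTHrP replicate 2 lay among them. Its log2 change of 0.47 with PTH missed the threshold (SE 0.13, adjusted p = 0.0758), as did 0.24 with PTHrP (adjusted p = 0.378). The Fosb change with PTH passed under 1 of 10 other settings, quantile normalization (0.48, adjusted p = 0.0376). Because Fosb is dim, the size of its change depends on the value added: the change with PTH was 0.84 with 1 and 0.20 with 64 in place of 16.

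Fosl2 (Entrez gene 14284) encodes Fra-2, the close relative of Fra-1. Its brightest probe set (1437247_at) read 1925, 1877 and 1867 with PTH, 1804, 1961 and 1944 with PTHrP, and 1823, 1798 and 1892 in controls. The groups overlapped, with log2 changes of 0.04 with PTH (95% interval -0.07 to 0.15) and 0.05 with PTHrP (-0.06 to 0.16). The other probe set (1422931_at) ranged from 79.9 in PTH replicate 2 to 140.5 in PTHrP replicate 3, and its changes of -0.22 and -0.04 did not pass (adjusted p = 0.589 and 0.959).

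**Figure D3:**
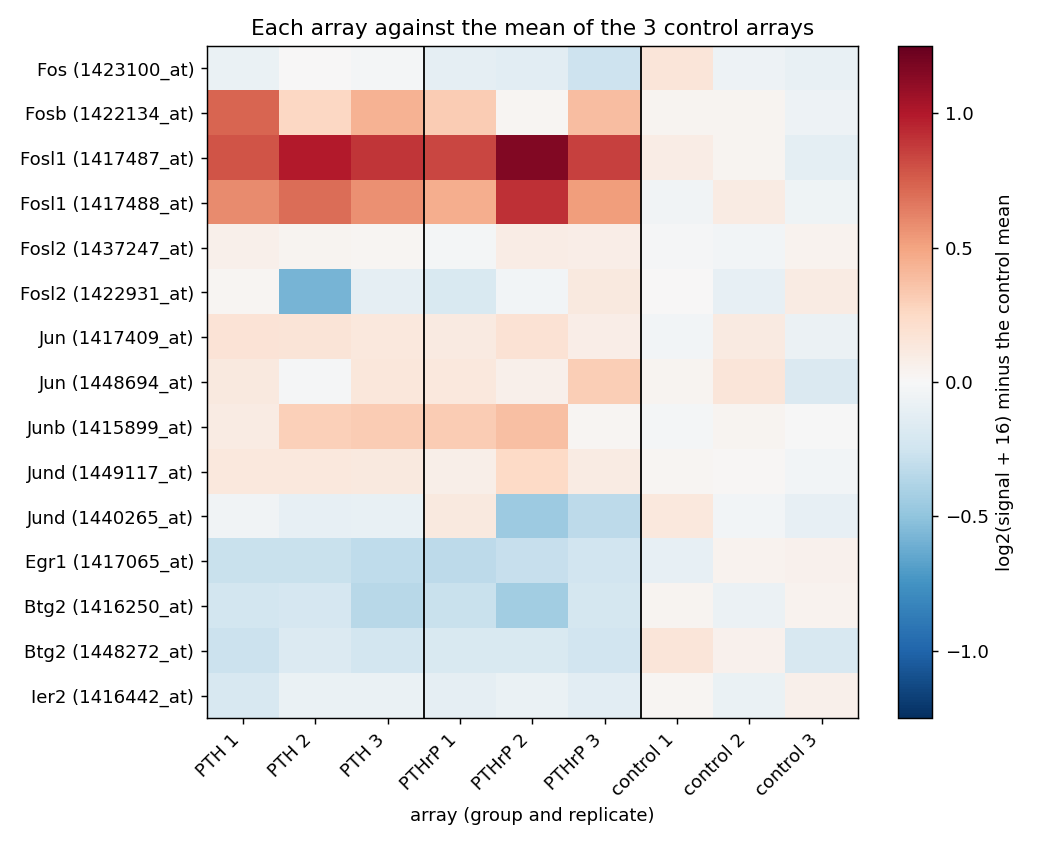
Log2(signal + 16) of the 15 probe sets on each of the 9 arrays, minus the mean of the 3 control arrays; red is higher and blue lower, with columns ordered PTH, PTHrP, control. Both Fosl1 rows are red on all 6 treated arrays, and Egr1 and both Btg2 rows are blue there. Control replicate 3 is blue for the other Btg2 probe set too.

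Counting arrays that do not overlap, 7 of the 10 genes were apart from control with PTH, against 26.0% of all genes. With PTHrP 5 were, against 22.4%. Fosl1, Jund, Egr1 and Btg2 were apart with both peptides considered jointly, 4 of 10 against 15.6%. Among these 4, Fosl1 and Jund were on the higher side.

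PTH against PTHrP asks whether the peptides, which share a receptor, differed at this dose and time. In limma no member passed for PTH minus PTHrP, nor did any of the 18193 genes (0.00%); at an unadjusted p below 0.05 there were 0 members and 730 genes, 4.01%. The difference for Fosl1 was -0.06 on the log2 scale (95% interval -0.29 to 0.18), for Egr1 -0.0069 (-0.14 to 0.12) and for Btg2 0.05 (-0.11 to 0.21). The widest interval, that of Fosb, ran from -0.06 to 0.53. For Fos the difference was 0.13 (-0.04 to 0.31), and the 3 PTH arrays lay above the 3 PTHrP arrays. Arrays of the 2 peptides were apart, in either direction, for 1 of the 10 members and 9.06% of all genes. The intervals leave room for differences of these sizes, so the test does not show that the peptides act alike.

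By the root mean square difference of profiles, each centred on its mean over the 9 arrays, the genes nearest to Fosl1 among 12823 genes above the dim level were Slc2a3, Limk1 and Il15ra. Slc2a3 encodes the glucose transporter GLUT3, Limk1 a kinase of the actin cytoskeleton and Il15ra a subunit of the interleukin 15 receptor. Their differences from Fosl1 were 0.06, 0.09 and 0.09 log2 units, where Fosl1 itself varied by 0.45 about its mean. Nearest to Egr1 were Ccn5, Angpt1 and Mcm6 (0.03, 0.03 and 0.04, against 0.14 for Egr1 itself). Nearest to Btg2 were Hps3, Steap2 and Garem1 (0.05, 0.05 and 0.06, against 0.15). These are descriptions over 9 arrays that fall into treated and control sets.

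Of 11 measured genes that pair with AP-1 proteins or compete with them (12 listed), 9 did not pass with PTH and 9 did not pass with PTHrP. With PTH 1 rose and 1 fell, where 2.96% of all genes rose and 3.14% fell. With PTHrP 0 rose and 2 fell, where 2.54% rose and 3.03% fell. The median log2 change was -0.05 with PTH and 0.0087 with PTHrP, beside the -0.0027 and -0.0050 of all genes. Jdp2, a Jun dimerization protein that represses AP-1 sites, averaged 709 ± 24.7 with PTH, 701 ± 40.2 with PTHrP and 1058 ± 33.1 in controls (SD, n = 3 each). It fell by 0.57 with PTH (adjusted p = 0.00123) and by 0.58 with PTHrP (adjusted p = 0.00100) on the log2 scale. With the mean of its 2 probe sets neither call stood (-0.31, adjusted p = 0.0940, and -0.28, 0.134). Maff, a small Maf protein, rose with PTH (0.33, adjusted p = 0.0298), with a change of 0.28 with PTHrP (0.0569). The Maff call was lost without any 1 PTH array, control replicate 2 or control replicate 3 (0.0765 to 0.110). Atf3, a stress-induced partner of Jun, fell with PTHrP (-0.29, adjusted p = 0.0231) and had -0.22 with PTH (0.0600). The Atf3 call was lost without PTH replicate 3, PTHrP replicate 1, PTHrP replicate 2, control replicate 1 or control replicate 2 (0.0503 to 0.0799).

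Among 26 other immediate early genes, 1 rose and 5 fell with PTH, beside 2.96% and 3.14% of all genes. With PTHrP 0 rose and 7 fell, beside 2.54% and 3.03%. The median log2 change was -0.04 with PTH and -0.06 with PTHrP. Egr3, a relative of Egr1, fell in mean signal to 123 ± 7.30 with PTH and 110 ± 11.3 with PTHrP, against 194 ± 18.8 in controls (SD, n = 3 each). Its log2 changes were -0.59 (SE 0.09, adjusted p = 0.00684) and -0.74 (SE 0.09, adjusted p = 0.00277). The 3 PTH arrays read 115, 125 and 130, the 3 PTHrP arrays 104, 123 and 102, and the controls 214, 177 and 192. All treated arrays were below all controls; the other Egr3 probe set was dim, and with the mean of both the PTHrP change was -0.39 and did not pass (0.111). Plk2, a polo-like kinase gene that serum induces, averaged 523 ± 19.4 with PTH, 535 ± 34.2 with PTHrP and 798 ± 26.6 in controls. Its log2 change was -0.59 with PTH and -0.56 with PTHrP (adjusted p = 0.00116 and 0.00148). Its other probe set was dim, and with the mean of both the calls were lost (-0.33 and -0.19). Klf6, a Krüppel-like factor, fell by 0.40 with PTH (adjusted p = 0.00425) and by 0.43 with PTHrP (0.00319), and 2 of its 4 other probe sets fell too.

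Zfp36l2, which speeds the decay of AU-rich messages, fell by 0.34 with PTH and by 0.32 with PTHrP (adjusted p = 0.0114 and 0.0153). The PTH call was lost without PTH replicate 2 (0.0510) or PTH replicate 3 (0.0584), and the PTHrP call without control replicate 1 (0.0520) or control replicate 2 (0.0535). Its other probe sets were dim (mean signals of 25.1 and 3.36). Averaged over all 3 probe sets, the Zfp36l2 changes were -0.04 with PTH and -0.15 with PTHrP, neither of which passed. Gadd45b, a stress response gene, fell with PTHrP (-0.42, adjusted p = 0.0358) and had -0.36 with PTH (0.0626). The change with PTH passed under 5 of 11 other settings and without PTHrP replicate 2 (0.0200) or PTHrP replicate 3 (0.0404). The Gadd45b call with PTHrP was lost without any 1 array except PTHrP replicate 3 (0.0517 to 0.112), and held under 5 of the 11 settings. Another Gadd45b probe set, with a mean signal of 320, fell with each peptide in the fit on all probe sets. Its changes were -0.45 with PTH (adjusted p = 0.0198) and -0.39 with PTHrP (0.0348). In that fit the brightest probe set did not pass (0.104 with PTH, 0.0653 with PTHrP). The remaining one, with a mean signal of 40.4, changed by 0.07 and 0.06 and did not pass. The 1 gene of this list that rose with PTH was the kinase gene Pim1 (0.31, adjusted p = 0.0169). The falls also took in Klf4, a Krüppel-like factor gene, with PTH (-0.32, 0.0260) and PTHrP (-0.31, 0.0335), and Ier5 with PTHrP (-0.23, 0.0252). Pim1, Klf4 and Ier5 are named here after their values were seen. The count with PTH was 3 without PTH replicate 2 or PTH replicate 3. The count with PTHrP was 3 without control replicate 1 or control replicate 2, and 4 without PTH replicate 3 or PTHrP replicate 1. With the mean of probe sets the count was 3 with PTH and 2 with PTHrP, and under a trended and robust variance it was 10 with PTH. The counts in these other fits were not set beside the shares of all genes in the same fits.

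Of 20 measured regulators of these genes (23 listed), which include serum response factor and the Nab corepressors of Egr1, 0 passed with PTH, beside 6.10% of all genes, and 1 rose with PTHrP, beside 5.57% of all genes that passed in either direction, a share near that of all genes. That gene was Rps6ka5 (MSK1), a kinase that phosphorylates CREB, at 0.28 with PTHrP (adjusted p = 0.0467) and 0.21 with PTH (0.101). Its PTHrP call was lost without any 1 of the 9 arrays (0.0532 to 0.157) and with the mean of its 3 probe sets (0.06, 0.767). Mrtfa, a coactivator of serum response factor, had -0.25 with each peptide (adjusted p = 0.0629 and 0.0656) and fell with both together (-0.25, 0.0291). That joint call was lost without PTH replicate 1, PTH replicate 3, PTHrP replicate 1, PTHrP replicate 3, control replicate 1 or control replicate 2 (0.0570 to 0.109). The count of regulators that passed varied by setting. Under a trended and robust variance it was 3 with PTH, 5 with PTHrP and 7 with both. With dim genes left out it was 1, 2 and 6, and with a pseudocount of 64 it was 1, 2 and 5. With PTHrP it was 0 at a pseudocount of 1, with array weights, a replicate block or only the groups compared. It was also 0 with probe set means or an adjusted p below 0.01. These counts were not set beside those of all genes.

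Of 20 measured genes known as targets of AP-1 or Egr1 (22 listed), 2 rose and 1 fell with each peptide, beside 6.10% of all genes that passed with PTH and 5.57% with PTHrP; the median log2 change was 0.05 with PTH and 0.01 with PTHrP. Il11, a cytokine of the interleukin 6 family, read 69.2, 81.5 and 73.1 with PTH, 70.7, 73.4 and 71.2 with PTHrP, and 31.1, 27.8 and 25.1 in controls. All treated arrays lay above all controls, whose mean was below the dim level, so the size depends on the value added (log2 change 1.04 with PTH and 1.00 with PTHrP, adjusted p = 0.000174 and 0.000177). Plau, the urokinase gene, averaged 98.2 ± 5.16 with PTH, 101 ± 8.82 with PTHrP and 68.5 ± 3.56 in controls. Its log2 change was 0.43 with PTH (adjusted p = 0.00914) and 0.47 with PTHrP (0.00634). Plau's other probe set was dim, and with the mean of both its changes were 0.17 and 0.16 and did not pass. F3, the tissue factor gene, averaged 3105 ± 73.6 with PTH, 3232 ± 211 with PTHrP and 4659 ± 120.2 in controls. Its log2 change was -0.58 with PTH (adjusted p = 0.00114) and -0.53 with PTHrP (0.00181). The members of this list that passed thus differed in direction.

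**Figure D4:**
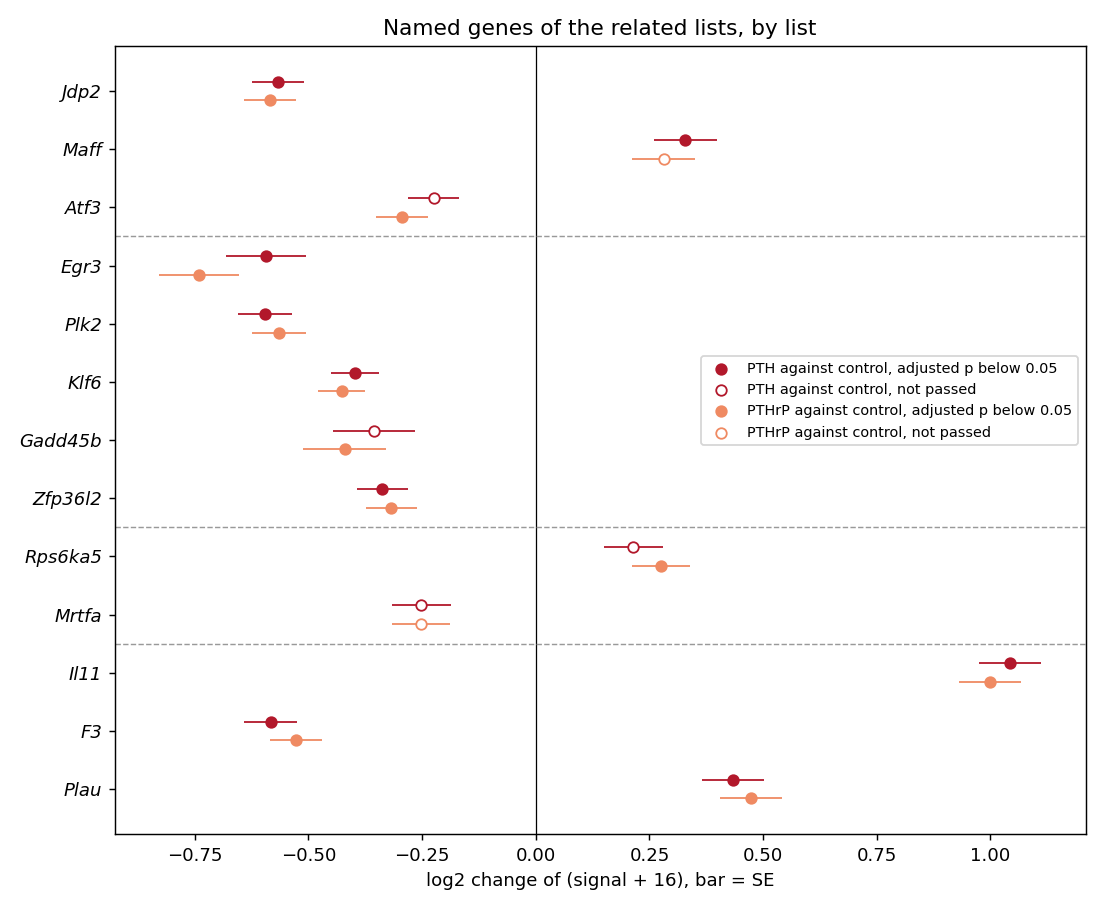
Log2 change of signal + 16, PTH and PTHrP each against control, for the named genes of the 4 related lists, which dashed lines divide (from the top, AP-1 partners, other immediate early genes, regulators, targets). Bars are SE and filled points passed at an adjusted p below 0.05. Il11, Plau, Maff and Rps6ka5 lie right of 0, and the other genes lie left.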

How the data were processed

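The authors' deposited table gives a linear intensity for each probe set of 9 one-colour arrays; the sources used here do not state how probes were summarised, corrected and scaled, and that the scale is linear was taken from its range. Biotin-labelled cRNA was used, per the labels. Array medians were 48.3 to 52.7; precision is limited by how few arrays there are. After log2(intensity + 16), limma 3.58.1 (R 4.3.3, statmod 1.5.0) estimated a mean for each group from all 9 arrays, with Benjamini-Hochberg adjustment at 0.05. Figures used matplotlib 3.10.9 and Python 3.11.15. Of 45101 probe sets, 64 were controls, 34945 had 1 symbol, 932 several and 9160 none; no member symbol stood among the 932. The steps were tested on simulated data.

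Named genes were the 10 members, up to 5 of each related list with the largest change among those that passed, and the 3 nearest profiles of each member that passed; others are named because of their values. The members and lists were chosen with earlier results of these data known. Alternatives were other normalizations, pseudocounts, filters, variances, array weights, a replicate block, fewer samples, probe set means and a stricter threshold. The labels give shared replicate numbers but do not say whether these pair the samples, and the main fit did not pair them.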

Additional observations from a re-analysis of the deposited data

How the results depend on the processing

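Fosl1 passed under all 11 settings and without any 1 of the 9 arrays in every comparison with control. Of the 10 genes, 2 passed with PTH and 3 with PTHrP. This became 1 and 1 with the replicate block, 1 and 1 with only the groups compared, and 1 and 1 at an adjusted p below 0.01. With both peptides, 3 became 5 under a trended and robust variance (Junb and Jund added). Of the 15 probe sets, 2 passed with each peptide and 3 with both. The count was 1 with PTH and 1 with PTHrP at a pseudocount of 1, 1 with PTHrP when only the groups compared were fitted, and 1, 1 and 1 at an adjusted p below 0.01. It was 4 with PTHrP when dim probe sets were left out or with a pseudocount of 64, and 4, 4 and 5 under the trended variance. Leaving out 1 array gave 1 to 2 genes with PTH, 1 to 3 with PTHrP and 2 to 4 with both, and 1 to 2, 1 to 2 and 2 to 3 probe sets. None of these changed counts was set beside the share of all genes or probe sets under the same setting. The actin ratio difference stayed between 0.0992 and 0.131.

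Over all alternatives, values of members that passed kept their call 123 times and missed the threshold 37 times; members that had not passed stayed so 605 times, passed 8 times and changed sign 23 times, all 23 without passing. With the mean of probe sets, Fosl2 was -0.0917 with PTH and -0.0425 with both peptides, Jund -0.0386 with PTHrP and -0.0077 with both, and, for PTH minus PTHrP, Jun -0.0277 and Jund 0.0618. For that difference Junb was -0.0073 under quantile normalization and -0.0021 under median centring, and Fosl2 0.00069 and Ier2 0.00094 with array weights. Leaving out 1 array gave, for the same difference, -0.0108 to 0.0952 for Btg2, -0.0289 to 0.017 for Egr1, -0.113 to 0.0478 for Fosl1, -0.0468 to 0.0131 for Fosl2, -0.0311 to 0.0309 for Ier2, -0.106 to 0.0718 for Junb and -0.0491 to 0.0363 for Jund. Fos with PTH went between -0.0793 and 0.0432.

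Over 9 pairs of same-numbered arrays, correlations of the deviations from the group means ran from -0.254 to 0.185. Of the 9 arrays, 4 correlated best with their own number. With the replicate number as a block Egr1 had adjusted p = 0.0559 with PTH and 0.0655 with PTHrP, and Btg2 0.101 with PTHrP and 0.0634 with both. The block also ended the calls of Maff with PTH (0.0925), Atf3 (0.0714), Gadd45b (0.104) and Rps6ka5 (0.0925) with PTHrP, and the count of other immediate early genes called with PTHrP was 4 against 7. That count was not set beside the share of all genes under the block. With only the groups compared Egr1 had 0.0529 with PTH and 0.0946 with PTHrP. The Btg2 call with PTHrP was lost under quantile normalization (0.0642), median centring (0.0761), a pseudocount of 1 (0.0597), array weights (0.0544), only the groups compared (0.109) and the mean of probe sets (0.0501). The causes were not tested. Fosb and the dim Jund probe set had no value when dim features were left out.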
